A study of Homo sapiens with 40 samples.

Results

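SPOP, its paralogue SPOPL, their cullin scaffold CUL3, the RING subunit RBX1 and the mRNAs of 5 reported substrates (BRD2, BRD3, DAXX, TRIM24 and NCOA3) were followed as 9 of the 19962 genes listed in a count table of 40 libraries. All 9 were among the 11428 genes that passed the filter on low counts. They were chosen by name, around a fall of SPOP mRNA in a single group of this study, so the SPOP values below are a description with no test. The other 8 genes, SPOPL included, were tested.

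SPOP is the substrate-binding adaptor of a cullin-RING ubiquitin ligase. Its MATH domain holds the substrate and its BTB domain binds CUL3, which carries RBX1 and through it the ubiquitin-conjugating enzyme, so that the substrate protein is ubiquitinated and often degraded. SPOP is best known for mutations in prostate and endometrial cancer, and the control it exerts on its substrates acts on protein. The libraries measured mRNA only.

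The cells were RKO, a colorectal carcinoma line, carrying a doxycycline-inducible Cas9 and a lentiviral pair of guides, sorted as pools for the blue fluorescent protein eBFP2 of the guide vector. Guides against the AAVS1 locus served as the control (sgAAVS1), and the other lines carried guides against the RNA-binding protein genes IGF2BP2 (sgIGF2BP2) or IGF2BP3 (sgIGF2BP3). Each of the 3 lines was given DMSO or doxycycline (Dox, 250 ng/mL for 72 h). In addition, the sgIGF2BP2 line was transfected with control siRNA (siControl) or siIGF2BP2, and the sgIGF2BP3 line with siControl or siIGF2BP3, each at 75 nM for 48 h and without Dox. All 10 groups were labelled with 4-thiouridine (250 µM for 2 h) and had 4 libraries each; the labels describe replicate wells and do not say that they were separate cultures, so p-values measure the spread between these libraries, which may be technical.

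Total counts ran from 10018181 to 24822807 per library with a median of 13468792, and SPOP itself was covered by 113 to 984 counts. Of 10 colon epithelial markers, 4 (EPCAM, KRT8, KRT18 and CDX2) were above 1 CPM. CPM are counts per 1000000, of the unscaled library total for these cell type markers and of the scaled total for all other genes. KRT20, CDX1 and LGR5 had no counts in any library, while CDH1, KRT19 and VIL1 reached at most 0.299 CPM. The summed epithelial level ran from 222 to 302 CPM over the groups. Of the fibroblast, leukocyte and endothelial markers, CD68 alone had a median above 1 CPM. The targeted genes were lower where the labels place the perturbation: IGF2BP2 was at 39.5% of its DMSO level with Dox and at 27.9% of its siControl level with siIGF2BP2, and IGF2BP3 was at 31.2% and 14.6% in the matching comparisons. IGF2BP3 was also lower with Dox in the sgIGF2BP2 line, at 84.3% of its DMSO level and without overlap. Its log2 fold change there was -0.25 (edgeR quasi-likelihood test, Benjamini-Hochberg adjusted p = 2.93e-06).

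The guides of the sgAAVS1 line are shown because the fall of SPOP occurred in that line on Dox, where Cas9 was induced. The first guide matched, base for base and next to an NGG motif, the promoter window of PPP1R12C, the gene that hosts AAVS1, at chr19:55117789-55117808 on the + strand of GRCh38.p14 (RefSeq), positions -171 to -152 from the start site. In SPOP transcripts (GENCODE 29) the best NGG-flanked site differed from the first guide at 9 of 20 positions and from the second guide at 8. Within the SPOP promoter window the best site for the second guide differed at 9 positions. In PPP1R12C the best site for the second guide differed at 9 positions in the promoter window and at 6 in transcripts. The search thus did not place the second guide at AAVS1. Among transcripts of all genes the nearest sites differed from the first guide at 3 positions (1 gene) and from the second at 4 (15 genes). In the guides the capitals mark the 12 bases next to the NGG motif, and in the SPOP sites the capitals mark bases that equal the guide.
sgAAVS1 guide 1: cgctgtgcCCCGATGCACAC
SPOP transcript site for guide 1: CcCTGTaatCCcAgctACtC
sgAAVS1 guide 2: ggcgcgtcGCTCGCTCGCTC
SPOP transcript site for guide 2: tcgcCGcCGCTCtCagGCTC
SPOP promoter site for guide 2: aGgGgGTCGCgCGCagGgcg
Introns and intergenic sequence were not analysed here. PPP1R12C mRNA was 139 ± 7.22 CPM (SD, n = 4) with DMSO and 136 ± 4.83 CPM (SD, n = 4) with Dox in the sgAAVS1 line, a log2 fold change of -0.03 (edgeR quasi-likelihood test, Benjamini-Hochberg adjusted p = 0.692).

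SPOP (ENSG00000121067; hg38, chromosome 17, 49598884 to 49678234, minus strand) was at 38.9, 36.5, 35.7 and 35.8 CPM in the 4 sgAAVS1 libraries with DMSO, and at 11.4, 13.1, 10.1 and 11.1 CPM in the 4 with Dox. Every Dox library lay below every DMSO library, and 31.2% of the level was left (log2 fold change -1.68, SE 0.077). Among the 11428 genes this was the largest change of that comparison in either direction. With Dox in the sgIGF2BP2 line SPOP was at 41.8, 46.3, 39.7 and 42.4 CPM against 36.8, 36.3, 40.1 and 37.0 CPM with DMSO, and those groups overlapped (log2 fold change 0.18, SE 0.061). In the sgIGF2BP3 line the Dox libraries held 39.0, 37.2, 44.5 and 38.5 CPM against 39.1, 42.2, 35.6 and 39.3 CPM with DMSO (log2 fold change 0.02, SE 0.062), again with overlap.

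In the order of the 10 group means, sgAAVS1 with Dox came lowest at 11.4 CPM and did not overlap its neighbour. The next was siControl in the sgIGF2BP3 line at 33.6 CPM, and the highest was Dox in the sgIGF2BP2 line at 42.55 CPM. From the second group upward each overlapped the next, which sorting by mean favours and which does not make these groups alike. Dox in the sgIGF2BP2 line, at 39.7 to 46.3 CPM, lay above every siControl library of that line (at most 38.9 CPM). It also lay above those of the sgIGF2BP3 line (at most 35.4 CPM). The siRNAs left SPOP close to siControl: 39.5 against 35.8 CPM for siIGF2BP2 (log2 fold change 0.14, SE 0.061) and 35.8 against 33.6 CPM for siIGF2BP3 (log2 fold change 0.09, SE 0.064). The siControl libraries of the sgIGF2BP3 line, at 32.1 to 35.4 CPM, all lay below that line's DMSO libraries, at 35.6 to 42.2 CPM (log2 fold change -0.21, SE 0.063). No test was made for SPOP in any of these comparisons.

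**Figure D1:**
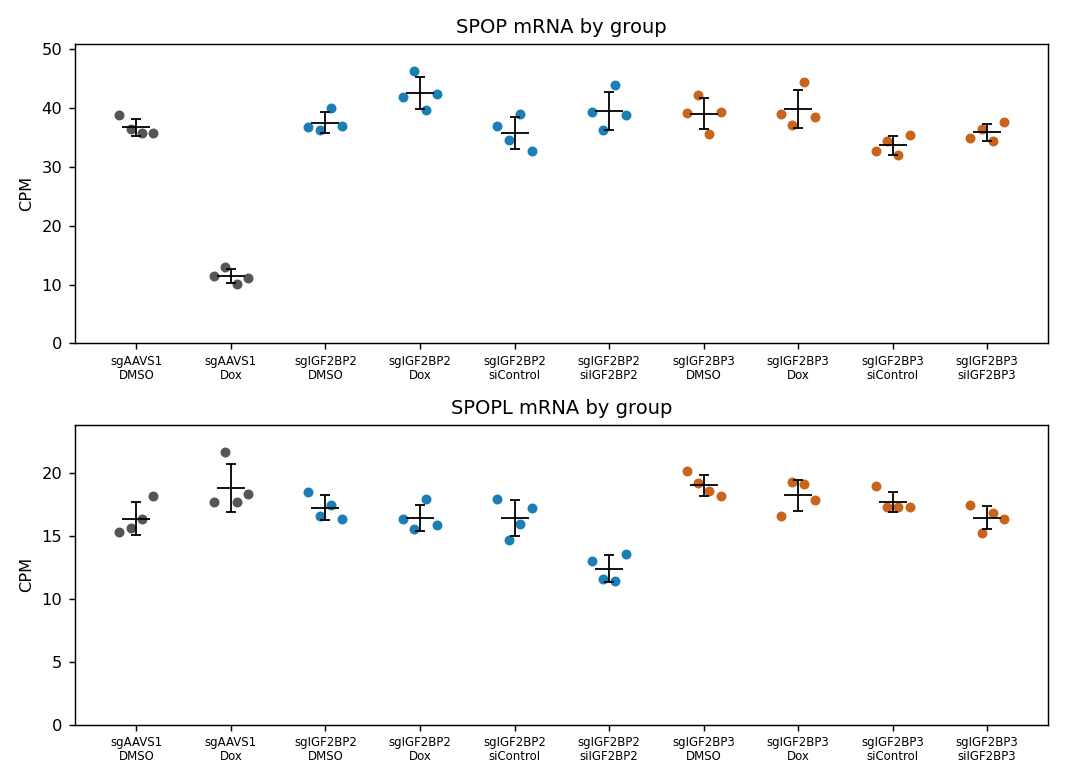
SPOP (top) and SPOPL (bottom) mRNA in CPM for the 40 libraries in 10 groups; points are libraries, horizontal bars are group means and error bars are SD (n = 4). The 4 sgAAVS1 Dox libraries sit between 10.1 and 13.1 CPM for SPOP and all other libraries at 32.1 CPM or above, while SPOPL is lowest with siIGF2BP2.

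Neither the paralogue nor the ligase core passed the test where SPOP fell. SPOPL (ENSG00000144228), a BTB adaptor that can pair with SPOP, was at 15.3, 15.6, 16.4 and 18.2 CPM with DMSO and at 17.7, 21.7, 17.7 and 18.3 CPM with Dox in the sgAAVS1 line. The groups overlapped and the log2 fold change was 0.19 (SE 0.078, 95% interval 0.0374 to 0.348, edgeR adjusted p = 0.0804). Dox replicate 2 carried much of it, as without that library the log2 fold change was 0.13 (adjusted p = 0.352), whereas it was 0.25 (adjusted p = 0.0291) without DMSO replicate 4 and 0.23 (adjusted p = 0.0318) with no scaling beyond the total count.

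CUL3 (ENSG00000036257), the scaffold that BTB adaptors share, was at 82.8, 84.9, 93.2 and 88.8 CPM with DMSO and at 92.7, 92.5, 85.5 and 94.6 CPM with Dox in the sgAAVS1 line, with overlap. Its log2 fold change was 0.06 (SE 0.046, 95% interval -0.0271 to 0.156, edgeR adjusted p = 0.378). RBX1 (ENSG00000100387), the RING protein that recruits the ubiquitin-conjugating enzyme, was at 45.9, 42.9, 43.4 and 41.9 CPM with DMSO and 40.3, 41.8, 44.7 and 49.9 CPM with Dox. The RBX1 groups overlapped as well (log2 fold change 0.02, 95% interval -0.107 to 0.151, edgeR adjusted p = 0.857). The lower bounds of both intervals lie far above the -1.68 of SPOP.

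On a per-length scale (CPM per kb of annotated exon) SPOP was the more abundant adaptor mRNA in every group but sgAAVS1 with Dox. There SPOP was at 1.79 and SPOPL at 2.91 CPM per kb, against 5.76 and 2.53 with DMSO. SPOP made up 69.4% ± 2.3 (SD, n = 4) of the summed SPOP and SPOPL level with DMSO and 38.1% ± 1.18 (SD, n = 4) with Dox. The summed level of both adaptors went from 8.29 to 4.7 CPM per kb. Share and sum include SPOP, around which the genes were chosen, so both are a description with no test. Over the other 8 groups the mean share of SPOP ran from 65.8% to 76.3%. Averaged over all 40 libraries, RBX1 was highest of the 9 genes at 13.4 CPM per kb, CUL3 stood at 7.62, SPOP at 5.515 and SPOPL lowest at 2.62.

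Among the substrate mRNAs, BRD2 alone passed the test in the sgAAVS1 line, and it fell. BRD2 (ENSG00000204256), a BET protein that reads acetylated histones, was at 72.9, 78.8, 77.0 and 77.2 CPM with DMSO and at 63.8, 62.2, 66.1 and 61.5 CPM with Dox. All 4 Dox libraries were below all 4 DMSO libraries, and the fitted change was -0.27 on the log2 scale (SE 0.046, 95% interval -0.364 to -0.181, edgeR adjusted p = 8.19e-06). Thus 1 of the 8 tested members was called, with 0 higher and 1 lower, where 15.9% of all tested genes were called and 8.68% were called lower and 7.25% higher. A single call in 8 lies near that background. Over all genes 828 were called higher and 992 lower, or 1418 and 548 with no scaling beyond the total count. The call held in all 15 other fits of this comparison, with log2 fold changes from -0.30 to -0.23.

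BRD3 (ENSG00000169925), another BET protein, was at 67, 73, 69.7 and 67.7 CPM with DMSO and 63.8, 64.2, 66.0 and 62.2 CPM with Dox. The groups did not overlap, but the log2 fold change of -0.12 missed the threshold (95% interval -0.212 to -0.0187, edgeR adjusted p = 0.0947). BRD2 and BRD3 were the 2 of 8 members without overlap, against 17.5% of all tested genes.

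The remaining substrates were DAXX, a histone H3.3 chaperone, TRIM24, a chromatin reader and nuclear receptor coregulator, and NCOA3, a steroid receptor coactivator. DAXX was at 33.3 ± 1.79 CPM (SD, n = 4) with DMSO and 34.3 ± 1.04 CPM with Dox, TRIM24 at 27.6 ± 1.06 and 28.5 ± 1.68 CPM, and NCOA3 at 31.7 ± 2.46 and 32.5 ± 2.0 CPM. All 3 had overlapping groups and log2 fold changes of 0.04 to 0.05, with edgeR adjusted p of 0.71 for DAXX, 0.647 for TRIM24 and 0.753 for NCOA3. The 95% intervals reached no further than -0.108 to 0.194, the interval of NCOA3. The median over the 8 members was 0.04, next to 0.00 for all tested genes.

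**Figure D2:**
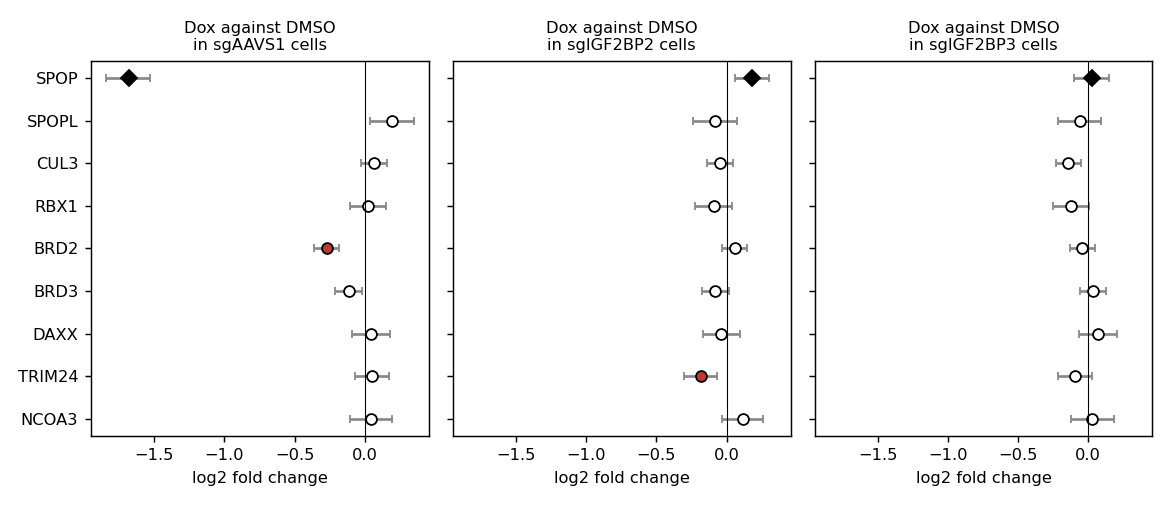
Log2 fold changes with 95% intervals of the 9 members after Dox, relative to DMSO, shown line by line, from edgeR on all 40 libraries. Filled red points passed the adjusted p threshold of 0.05, open points did not, and the black diamond is SPOP, for which no test was made; SPOP stands at -1.68 in the sgAAVS1 line while the other members lie between -0.27 and 0.19 there.

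The fall of BRD2 was also set against the other lines, in which Dox induced Cas9 with other guides. BRD2 was at 78.9 ± 3.77 CPM with Dox and 75.5 ± 2.27 CPM with DMSO in the sgIGF2BP2 line (SD, n = 4), and at 74.2 ± 4.19 and 76.4 ± 2.47 CPM in the sgIGF2BP3 line. The Dox effect on BRD2 was lower in the sgAAVS1 line by a log2 difference of -0.33 against the sgIGF2BP2 line (edgeR interaction, adjusted p = 0.000315), and this was 1 of 8 members called where 6.97% of all genes were called. Against the sgIGF2BP3 line it was lower by -0.23 (adjusted p = 0.0165), which became -0.18 (adjusted p = 0.0596) with no scaling beyond the total count. The latter comparison called 2 of 8 members, BRD2 and CUL3, with 7.78% of all genes called. Those 889 genes became 540 without sgAAVS1 DMSO replicate 2, 1415 without sgAAVS1 DMSO replicate 4 and 428 without sgIGF2BP3 Dox replicate 4. For CUL3 the log2 difference was 0.21 (adjusted p = 0.0345), made of 0.06 in the sgAAVS1 line and -0.14 in the sgIGF2BP3 line, and 9 of the 16 fits that left out 1 library lost that call, with adjusted p from 0.0511 to 0.108. Those 9 libraries were sgAAVS1 DMSO replicates 1 and 2, sgAAVS1 Dox replicates 1, 2 and 4, sgIGF2BP3 DMSO replicates 3 and 4, and sgIGF2BP3 Dox replicates 2 and 4. These comparisons share the sgAAVS1 libraries.

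In the sgIGF2BP2 line Dox called 1 of 8 members against 20.4% of all genes. That was TRIM24 (ENSG00000122779), at 24.7, 23.9, 26 and 26.8 CPM with Dox and 28.0, 29.5, 28.9 and 28.4 CPM with DMSO. The groups did not overlap, as for 18% of all genes in that comparison, and the log2 fold change was -0.19 (SE 0.06, edgeR adjusted p = 0.0198). The call was lost without DMSO replicate 3 (adjusted p = 0.0539), Dox replicate 1 (adjusted p = 0.0509) or Dox replicate 2 (adjusted p = 0.101), with no scaling beyond the total count (adjusted p = 0.0646) and with only these 2 groups in the fit (adjusted p = 0.0508). The difference of the TRIM24 Dox effect between the sgAAVS1 and sgIGF2BP2 lines, 0.23, missed the threshold (adjusted p = 0.0808).

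In the sgIGF2BP3 line Dox called 0 of 8 members with edgeR, 1 at an unadjusted p under 0.05 and 0 with DESeq2, where 2.64% of all genes were called, or 302, a number that fell to between 108 and 172 without DMSO replicate 3 or 4 or Dox replicate 2 or 4. The nearest was CUL3, at 85.6, 85.7, 85.9 and 84.5 CPM with Dox and 91.5, 91.3, 101 and 93.1 CPM with DMSO. These groups did not overlap, as for 10.4% of all genes, with a log2 fold change of -0.14 (95% interval -0.233 to -0.0509, edgeR adjusted p = 0.0761). Between the lines themselves, with DMSO, edgeR called 0 of 8 members for sgIGF2BP2 or sgIGF2BP3 against sgAAVS1 (1 and 2 at an unadjusted p under 0.05), and 0.0175% of all genes were called in each. DESeq2 called 0 as well, but gave no adjusted p for SPOPL in the sgIGF2BP3 comparison. The 2 genes called for sgIGF2BP3 became 74 without sgAAVS1 DMSO replicate 4, 35 with no filter on low counts, and 1 to 4 without any other single library.

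The wider ligase machinery was followed through lists of related genes, chosen with earlier results of these data known. Of 23 genes of the NEDD8 cycle, which activates cullins, and of the COP9 signalosome, which takes NEDD8 off them, 21 were tested; NEDD8 was listed at 0 in every library, although all cells use it, and CAND2 had at most 2 counts. In the sgAAVS1 line with Dox 1 rose and 4 fell, next to 7.25% of all tested genes called higher and 8.68% called lower, with a median log2 fold change of 0.01. In the sgIGF2BP2 line with Dox 0 rose and 7 fell, where 20.4% of all tested genes were called. In the sgIGF2BP3 line 0 rose and 1 fell, where 2.64% were called. The riser was COPS2 (0.12, edgeR adjusted p = 0.0454), and those that fell were GPS1 (-0.29, adjusted p = 1.96e-09), COPS7B (-0.13, adjusted p = 0.0252), COPS7A (-0.12, adjusted p = 0.0184) and COPS6 (-0.10, adjusted p = 0.0489, named after its value was seen), all subunits of the signalosome. The count of 5 was 2 with no scaling beyond the total count or no filter on low counts, and 3 after thinning to the smallest library. Leaving out DMSO replicate 2 or Dox replicate 1 brought it to 1, Dox replicate 2 to 2, and DMSO replicate 3 or Dox replicate 3 to 3. COPS7B and COPS7A also fell in the sgIGF2BP2 line (-0.13 each, adjusted p = 0.0191 and 0.00784), and the GPS1 change was smaller there (-0.11, adjusted p = 0.0192; difference between the lines -0.18, adjusted p = 0.0119). GPS1 lies on chromosome 17 at 82050691 to 82057470, beyond SPOP towards the end of the long arm.

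Of 8 genes of the other cullins and the second RING protein RNF7, edgeR and DESeq2 called 0 with Dox in the sgAAVS1 line (1 at an unadjusted p under 0.05). CUL1, the most abundant, was at 198.6 ± 3.41 CPM with Dox and 199.5 ± 2.87 CPM with DMSO there (log2 fold change -0.01, edgeR adjusted p = 0.917). In the sgIGF2BP2 line with Dox 1 of these 8 rose and 1 fell, where 20.4% of all tested genes were called. In the sgIGF2BP3 line 0 rose and 2 fell, where 2.64% were called. With siIGF2BP2 1 rose and 5 fell, where 36.8% of all tested genes were called and 18.4% were called lower. Of 38 other BTB adaptors that use CUL3, 36 were tested. With Dox in the sgAAVS1 line 0 rose and 2 fell, a smaller share than the 15.9% of all tested genes called. These were KLHL17 (-0.20, edgeR adjusted p = 0.000567) and ENC1 (-0.19, edgeR adjusted p = 0.0321). With Dox in the sgIGF2BP2 line 8 rose and 1 fell, where 20.4% of all tested genes were called. The median of the tested adaptors was 0.03, and the count of 2 was 5 with no scaling, and 1 with no filter or after thinning. Without DMSO replicate 1 or 2 or Dox replicate 1 it was 1, and without DMSO replicate 4 it was 4.

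Of 32 other reported SPOP substrates, 25 were tested, 0 rose and 4 fell in the sgAAVS1 line with Dox, with a median log2 fold change of -0.07. The 4 calls in 25 are near the 15.9% of all tested genes called, but all 4 were falls, and 8.68% of all tested genes were called lower. With Dox in the sgIGF2BP2 line 2 rose and 4 fell, where 20.4% of all tested genes were called. MYC, a transcription factor of growth genes, went from 390.0 ± 7.44 to 293.9 ± 19.2 CPM (SD, n = 4; log2 fold change -0.41, edgeR adjusted p = 1.7e-11). DUSP6, a phosphatase that switches off ERK, went from 134.9 ± 7.39 to 106.4 ± 3.47 CPM (log2 fold change -0.34, adjusted p = 1.62e-09), and its relative DUSP7 from 106.9 ± 2.59 to 92.5 ± 1.86 CPM (log2 fold change -0.21, adjusted p = 0.000131). The last was CDC20 (-0.15, adjusted p = 0.0081), an activator of the anaphase-promoting complex, named after its value was seen. All 3 of the larger changes left the Dox and DMSO groups without overlap, as for 17.5% of all tested genes. These genes were named for the size of their changes. In the sgIGF2BP2 line Dox moved MYC by 0.19 (adjusted p = 0.000562) and DUSP6 by 0.35 (adjusted p = 3.03e-10), and both rose, while in the sgIGF2BP3 line the values were 0.06 (adjusted p = 0.495) and 0.10 (adjusted p = 0.15). The difference of the Dox effects was -0.59 for MYC (adjusted p = 1.51e-11) and -0.69 for DUSP6 (adjusted p = 8.91e-15) between the sgAAVS1 and sgIGF2BP2 lines. With siIGF2BP2 both fell, MYC from 383.6 to 271.2 CPM (-0.50, adjusted p = 7.29e-16) and DUSP6 from 91.0 to 78.6 CPM (-0.21, adjusted p = 5.08e-05). Why MYC and DUSP6 changed in any of these comparisons was not tested. Among the untested substrates ESR1, PGR, ERG, GLI2, GLI3 and NANOG had at most 2 counts in any library.

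Of 12 partners of the 5 substrate proteins, 0 rose and 3 fell in the sgAAVS1 line with Dox, next to 8.68% of all tested genes called lower, with a median of -0.04. Those that fell were H3F3B, which encodes the histone H3.3 that DAXX deposits (-0.25, edgeR adjusted p = 1.08e-07), TRIM28, a TRIM24 relative and corepressor (-0.22, adjusted p = 1.11e-06), and CARM1, the arginine methyltransferase that works with NCOA3 (-0.16, adjusted p = 0.00109). With Dox in the sgIGF2BP2 line 1 of the 12 rose and 3 fell, where 20.4% of all tested genes were called. In the sgIGF2BP3 line 1 rose and 0 fell, where 2.64% were called. H3F3B was lower without overlap in the other lines with Dox as well, from 754.8 to 679 CPM in the sgIGF2BP2 line (-0.15, edgeR adjusted p = 0.00061) and from 746.3 to 691.9 CPM in the sgIGF2BP3 line (-0.11, edgeR adjusted p = 0.0664). In those lines 18% and 10.4% of all tested genes were without overlap. The H3F3B Dox effect in the sgAAVS1 line did not differ from either past the threshold (edgeR interaction, adjusted p = 0.238 and 0.0633). H3F3B lies beyond SPOP on the long arm of chromosome 17.

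Genes beside SPOP were slightly lower in the group where SPOP was low. Of the 5 tested genes on each side, 9 of 10 had a negative log2 fold change in the sgAAVS1 line with Dox (median -0.13), and 3 fell past the threshold while 0 rose, next to 8.68% lower and 7.25% higher over all tested genes. These were PHB, a mitochondrial scaffold protein, at 317 against 372 CPM (-0.23, edgeR adjusted p = 6.89e-08), SLC35B1, an ATP and ADP carrier of the endoplasmic reticulum (-0.21, adjusted p = 0.00106), and ATP5MC1, a subunit of the ATP synthase (-0.20, adjusted p = 0.00969). PHB is the next tested gene on one side of SPOP and SLC35B1 on the other. With Dox in the sgIGF2BP2 and sgIGF2BP3 lines the median of the same 10 genes was 0.05 in each, with 1 gene higher and 0 lower. Over all tested genes 20.4% and 2.64% were called in those lines.

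Across the 250 tested genes that start beyond SPOP on the long arm, a set chosen after their values were seen, 88.4% had a negative log2 fold change in the sgAAVS1 line with Dox (median -0.17), and 130 were called lower and 1 higher. Over all tested genes 8.68% were called lower and 7.25% higher there. The medians were 0.02 and 0.01 in the sgIGF2BP2 and sgIGF2BP3 lines. SPOP, at -1.68, lay far below this stretch. Whether the shift along the chromosome and the fall of SPOP are linked was not tested.

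**Figure D3:**
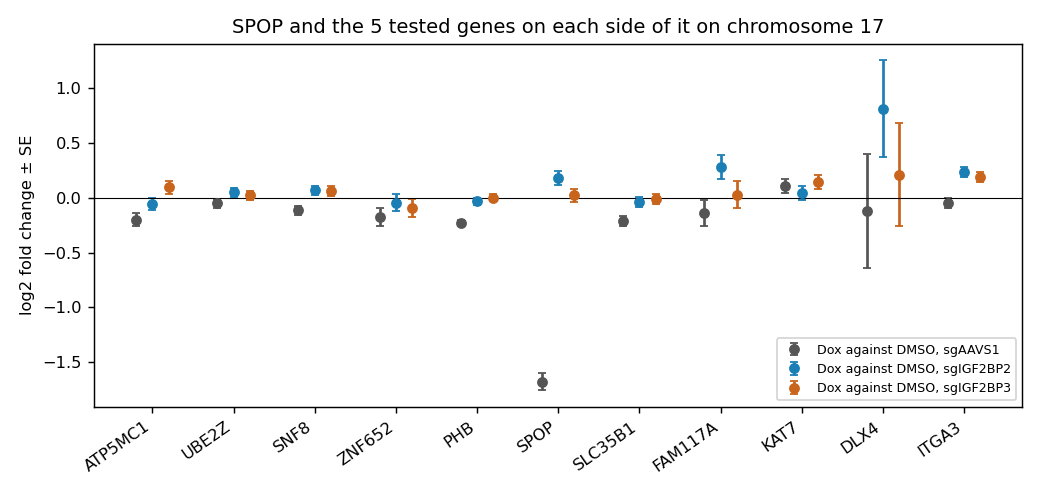
Log2 fold change ± SE after Dox, relative to DMSO, coloured by line, for SPOP and the 5 tested genes on each side of it in chromosomal order. SPOP stands at -1.68 in the sgAAVS1 line, where 9 of its 10 neighbours are also below 0, at a median of -0.13.

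By the root mean square difference of the 10 group means of log2 CPM, each centred on its own mean, the patterns nearest to that of SPOP were those of UNC5A (0.389), DHRS11 (0.396), DCXR (0.398), BCAS3 (0.399) and RNF208 (0.402). A flat gene would score 0.523, the size of SPOP's own departures, and the median gene scored 0.531, so no gene followed SPOP closely. DHRS11, DCXR and BCAS3 lie on chromosome 17, and the 5 genes had log2 fold changes from -0.64 to -0.32 in the sgAAVS1 line with Dox. Among the members BRD2 was nearest, at 0.474 and rank 347 of 9957 genes, and BRD3 scored 0.516. The other members scored from 0.534 for NCOA3 to 0.6 for SPOPL, farther from SPOP than a flat gene. The score uses the SPOP values around which the genes were chosen, so it is a description with no test.

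The largest change of any member other than SPOP was that of BRD3 with siIGF2BP3. BRD3 was at 86.0, 87.1, 83.3 and 80.1 CPM with siControl and at 49.4, 47.7, 46.2 and 49.8 CPM with siIGF2BP3. Every siIGF2BP3 library was below every siControl library, 57.4% of the level was left, and the log2 fold change was -0.80 (SE 0.049, 95% interval -0.899 to -0.703, edgeR adjusted p = 1.24e-21). It was the only one of the 8 members called, where 2.34% of all genes were called. The groups of BRD2 and DAXX did not overlap either, so that 3 of 8 members were without overlap where 9.96% of all genes were, but both missed the threshold, with log2 fold changes of 0.08 (adjusted p = 0.455) and -0.07 (adjusted p = 0.73).

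With Dox in the same line, where IGF2BP3 mRNA was also lower, BRD3 was at 72.9, 79.6, 68.3 and 80.4 CPM against 77.9, 77.9, 69.6 and 68.7 CPM with DMSO. Those groups overlapped (log2 fold change 0.03, 95% interval -0.0592 to 0.129, edgeR adjusted p = 0.767). The siRNA effect was lower than the Dox effect by a log2 difference of -0.84 (SE 0.068, adjusted p = 1.87e-15), and lower than the siIGF2BP2 effect in the sgIGF2BP2 line by -0.78 (adjusted p = 3.29e-15); these 2 differences were chosen after the values were seen. They called 1 and 4 of 8 members, where 1.36% and 18.7% of all genes were called. BRD3OS, which shares 1281 exon bases with BRD3 on the opposite strand, was at 20.1 CPM with siIGF2BP3 and 20.9 CPM with siControl (log2 fold change -0.05, adjusted p = 0.822). Whether the siRNA acted on BRD3 other than through IGF2BP3 was not tested.

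With siIGF2BP2, 3 of 8 members fell and 0 rose, where 36.8% of all genes were called and 18.4% were called lower. CUL3 was at 88.3, 89.5, 92.5 and 94.1 CPM with siControl and at 73.2, 75.4, 78.1 and 68.2 CPM with siIGF2BP2, without overlap (log2 fold change -0.31, SE 0.046, edgeR adjusted p = 1.41e-07). SPOPL was at 18, 14.7, 15.9 and 17.2 CPM with siControl and at 13.0, 11.6, 11.4 and 13.6 CPM with siIGF2BP2, again without overlap (log2 fold change -0.41, SE 0.082, adjusted p = 4.04e-05). They were 2 of 8 members without overlap, next to 30.6% of all genes. Both are parts of the ligase, and the share of 3 in 8 equals the background of this comparison within 1 gene.

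NCOA3 was the third, at 38.5, 33.4, 38.4 and 36.5 CPM with siControl and 31.7, 34.1, 22.2 and 30.6 CPM with siIGF2BP2. The groups overlapped, replicate 3 with siIGF2BP2 was the lowest of all, and the fitted change of -0.31 on the log2 scale (SE 0.074, edgeR adjusted p = 0.000487) became -0.20 (adjusted p = 0.0196) without that library.

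The same 3 genes did not pass the test with Dox in the sgIGF2BP2 line, where the log2 fold changes were -0.05 for CUL3, -0.08 for SPOPL and 0.11 for NCOA3. The siRNA effect minus the Dox effect, a comparison chosen after the values were seen, was -0.26 for CUL3 (edgeR adjusted p = 0.00145), -0.33 for SPOPL (adjusted p = 0.0238) and -0.43 for NCOA3 (adjusted p = 0.00118), making 3 of 8 members where 26.1% of all genes were called. For SPOPL that call was lost without Dox replicate 3 (adjusted p = 0.0562), siControl replicate 1 (adjusted p = 0.0792), siIGF2BP2 replicate 2 (adjusted p = 0.0562) or siIGF2BP2 replicate 3 (adjusted p = 0.0592), and after thinning (adjusted p = 0.0511). The effects of siIGF2BP3 minus those of siIGF2BP2 were 0.22 for CUL3 (adjusted p = 0.0115, and 0.052 without siIGF2BP2 replicate 4), 0.41 for NCOA3 (adjusted p = 0.00225) and 0.31 for SPOPL (adjusted p = 0.0486, lost in 16 of 23 other fits, among them DESeq2 at 0.0546). The siRNA and Dox arms differ in reagent, in time, in the reference group (siControl or DMSO) and in how much target mRNA was left. IGF2BP2 was at 27.9% with siRNA and 39.5% with Dox, and IGF2BP3 at 14.6% and 31.2%. Those differences cannot be told apart from the route of depletion.

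The siControl groups set against DMSO show how far the siRNA arm itself differed from the DMSO arm. BRD2 was lower with siControl in both lines, at 65.0 ± 4.47 against 75.5 ± 2.27 CPM in the sgIGF2BP2 line (log2 fold change -0.21, edgeR adjusted p = 0.000276) and 64.6 ± 1.17 against 76.4 ± 2.47 CPM in the sgIGF2BP3 line (-0.24, adjusted p = 4.5e-05). These falls, without overlap, were close in size to that with Dox in the sgAAVS1 line. BRD3 was higher with siControl in both lines, by 0.17 (adjusted p = 0.00413) and 0.19 (adjusted p = 0.00141), also without overlap. NCOA3 was higher by 0.21 in the sgIGF2BP2 line (adjusted p = 0.0359), a call that 5 of the 8 fits leaving out 1 library lost, namely those without DMSO replicate 3 or 4 or siControl replicate 1, 3 or 4, with adjusted p up to 0.16; in the sgIGF2BP3 line it was 0.19 (adjusted p = 0.0683). In all, 3 of 8 members were called in the sgIGF2BP2 line (18.4% of all genes) and 2 of 8 in the sgIGF2BP3 line (19.4% of all genes). In each line 2 of 8 were without overlap, next to 20.3% and 21.9% of all genes.

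**Figure D4:**
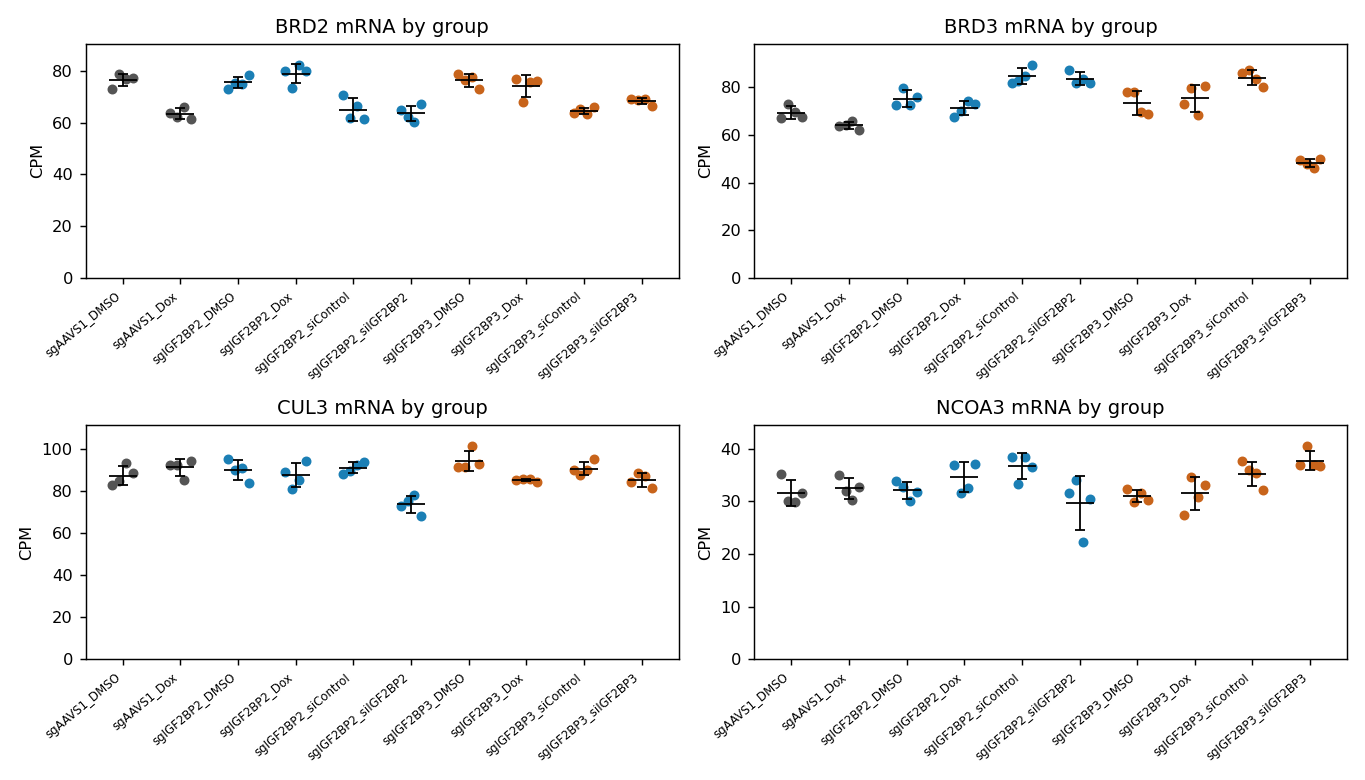
BRD2, BRD3, CUL3 and NCOA3 mRNA in CPM in the 40 libraries; points are libraries, bars are means and error bars are SD (n = 4 per group). BRD3 with siIGF2BP3 lies at 46.2 to 49.8 CPM, below every other group, CUL3 is lowest with siIGF2BP2, and BRD2 is lower with Dox in the sgAAVS1 line and in all 4 siRNA groups than in the remaining groups' means.

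Over all 10 groups the mean of DAXX ran from 30.1 to 34.3 CPM, TRIM24 from 25.3 to 28.7 CPM and RBX1 from 38.1 to 44.2 CPM, the narrowest ranges among the members. The counting is not stated to use strand in the sources used here, so reads of overlapping antisense genes cannot be told apart from those of a member. HLA-DMA, which overlaps BRD2, and SULF2, which overlaps NCOA3, had at most 5 and 4 counts in any library, and AL662820.1, which shares 441 exon bases with DAXX on the same strand, had 0. Other overlapping genes were not among the genes listed, so their levels are unknown. On the opposite strand these were AL645941.3 (577 exon bases of BRD2) and AC073052.2 (598 of CUL3). On the same strand they were AL645941.1 (243 of BRD2) and AC092620.2 (444 of SPOPL). BRD3OS, opposite BRD3, was at 24.9 CPM with siIGF2BP2 and 19.4 CPM with siControl (log2 fold change 0.36, edgeR adjusted p = 3.09e-05). Of the possible 100-base reads of each member's transcripts, 9.59% for DAXX, 3.82% for SPOPL and 1.24% for BRD2 also occur in a transcript of another gene, and 0 for SPOP.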

How the data were processed

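Gene counts for 40 libraries (10 groups of 4, poly(A) RNA, single 100-base reads) were used as the authors deposited them. Per the submitters' processing notes, the reads were handled with bcl2fastq 2.20.0.422 and STAR 2.7.5c on hg38; the counting step and annotation are not given in the sources used here. Ensembl identifiers were matched to GENCODE 29 names (19847 of 19962 matched).

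Counts were scaled by TMM (factors 0.978 to 1.03), filtered with filterByExpr by group (11428 genes kept, 99.98% of counts) and tested with the edgeR 4.0.16 quasi-likelihood test in R 4.3.3, with 1 coefficient per group over all 40 libraries, Benjamini-Hochberg adjustment over all genes tested and a threshold of 0.05. The biological coefficient of variation was 3.79%. Levels are CPM on the scaled totals, except for the cell type markers, which are on the unscaled totals. SE and 95% intervals are those of the fitted log2 fold change. The procedure was tested on simulated data.

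The members and lists were chosen with earlier results of these data known. Named genes were the 9 members, up to 3 called higher and 3 called lower with the largest change from each list (NEDD8 cycle and COP9 signalosome, other cullins and RNF7, other BTB adaptors, other reported substrates, substrate partners; the most abundant gene where none was called), the 5 tested genes on each side of SPOP and the 5 nearest in pattern. Guides were searched against GENCODE 29 transcripts and RefSeq promoter windows (GRCh38.p14), on both strands, next to NGG. Alternatives were RLE scaling, no scaling, no filter, DESeq2 1.42.0, only the groups compared, a replicate block, thinning to the smallest total and each library left out in turn. Some genes of the lists are not reported here by name.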

Additional observations from a re-analysis of the deposited data

Results flagged for a closer look

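In 5 of the 90 sets of 4 libraries (9 members in 10 groups) a single library stood far from the other three on Dixon's criterion, about the number that chance gives at 1 in 20 groups. SPOPL in sgAAVS1 Dox replicate 2 was at 21.66 CPM, with the others at 17.68 to 18.34 CPM, and SPOPL in sgIGF2BP3 siControl replicate 1 was at 18.96 CPM, with the others at 17.29 to 17.34 CPM. BRD2 in sgIGF2BP3 Dox replicate 2 was low at 67.96 CPM, with the others at 75.75 to 77.03 CPM. DAXX in sgIGF2BP2 siIGF2BP2 replicate 3 was at 33.91 CPM, with the others at 28.8 to 29.06 CPM, and NCOA3 in sgIGF2BP3 siIGF2BP3 replicate 2 was at 40.46 CPM, with the others at 36.73 to 36.96 CPM. Whole libraries stood apart as well, by a chi-square per tested gene between pairs of libraries. Pairs with sgIGF2BP2 Dox replicate 2 were at 11.8 to 16.6, and the other pairs of that group at 2.08 to 2.8. Pairs with sgIGF2BP2 siIGF2BP2 replicate 3 were at 5.64 to 6.42, and the other pairs at 1.49 to 1.83.

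The Dox effect differed between lines by an edgeR interaction test for 2 members. Called were 1 of 8 members against sgIGF2BP2 (6.97% of all genes) and 2 of 8 against sgIGF2BP3 (7.78% of all genes). For BRD2 the log2 difference was -0.33 between sgAAVS1 and sgIGF2BP2 (adjusted p = 0.000315) and -0.23 between sgAAVS1 and sgIGF2BP3 (adjusted p = 0.0165), with all 4 Dox libraries below all 4 DMSO libraries in the sgAAVS1 line only. For CUL3 it was 0.21 between sgAAVS1 and sgIGF2BP3 (adjusted p = 0.0345). With no scaling beyond the total count the BRD2 difference against sgIGF2BP3 became -0.18 (edgeR interaction, adjusted p = 0.0596). The CUL3 call was lost in 9 of 23 other fits (adjusted p up to 0.108). The cause of these differences was not tested.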

How the results depend on the processing

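Over 1999 member fold changes recomputed under the alternatives, SPOP left out, 1876 kept their direction and side of the threshold, 18 gained a call and 43 lost it, and 62 changed sign; DESeq2 gave no adjusted p for 1 more. Those that changed sign were uncalled in both fits, at most 0.04 in size as reported and 0.07 after the change, with adjusted p of 0.64 or more. SPOP in the sgAAVS1 line with Dox ran from -1.74 to -1.64 over 15 fits. With no scaling beyond the total count the members called became 2 with Dox in the sgAAVS1 line, 0 with Dox in the sgIGF2BP2 line and 1 in the difference between the sgAAVS1 and sgIGF2BP3 Dox effects, the NEDD8 and signalosome list 2 and the BTB adaptors 5. That setting also moved the share of calls that were higher from 45.5% to 72.1% with Dox in the sgAAVS1 line, from 49.1% to 66.6% in the sgIGF2BP2 line, from 50.0% to 60.2% with siIGF2BP2, from 40.1% to 50.4% with siIGF2BP3 and from 41.7% to 71.6% in the difference between the sgAAVS1 and sgIGF2BP3 lines. With no filter the siControl comparison in the sgIGF2BP3 line called 4, the NEDD8 and signalosome list 2 and the BTB adaptors 1. After thinning, Dox in the sgIGF2BP3 line called 1, the difference between sgAAVS1 and sgIGF2BP2 called 2, the NEDD8 and signalosome list 3 and the BTB adaptors 1. With only the groups compared, Dox in the sgIGF2BP2 line called 0, Dox in the sgIGF2BP3 line 1 and siControl in the sgIGF2BP3 line 4. Over the 7 alternatives other than leaving out a library, all genes called ran from 1562 to 1966 with Dox in the sgAAVS1 line. They ran from 1849 to 2405 with Dox in the sgIGF2BP2 line and from 206 to 477 in the sgIGF2BP3 line. With siControl in the sgIGF2BP3 line they ran from 1918 to 2753. The difference of Dox effects called 576 to 905 between sgAAVS1 and sgIGF2BP2, and 734 to 1062 between sgAAVS1 and sgIGF2BP3. The cause of these shifts was not tested.

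Leaving out each library in turn, the members called ran from 1 to 2 with Dox in the sgAAVS1 line, 0 to 1 with Dox in the sgIGF2BP2 line, 1 to 2 in each difference of Dox effects and 2 to 4 with siControl in the sgIGF2BP3 line (4 without siControl replicate 4). The NEDD8 and signalosome list ran from 1 to 6 and the BTB adaptors from 1 to 4.

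Libraries with the same replicate number did not deviate together (0 of 4 pairs had a correlation over 0.1 in any comparison), so the numbers were not taken to pair the libraries. All 4 libraries nevertheless correlated best with their own number in siControl against DMSO in the sgIGF2BP2 line (0.0437 to 0.0924) and in sgIGF2BP3 against sgAAVS1 with DMSO (0.0219 to 0.0966), a hint from the data and not from the design. With the replicate block the members called were 1 with Dox in the sgAAVS1 line, 1 in the sgIGF2BP2 line and 0 in the sgIGF2BP3 line, 3 with siIGF2BP2 and 1 with siIGF2BP3. Over all genes that fit called 877 higher and 1036 lower with Dox in the sgAAVS1 line. It called 1181 and 1224 with Dox in the sgIGF2BP2 line, and 208 and 134 in the sgIGF2BP3 line. With siIGF2BP2 it called 2154 and 2139, and with siIGF2BP3 119 and 172. The block raised RBX1 with siControl in the sgIGF2BP3 line past the threshold (-0.17, edgeR adjusted p = 0.0488) and took SPOPL below it in the difference of siRNA effects (0.30, adjusted p = 0.0533).

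The sign changes by setting were as follows. With no scaling BRD3 with siIGF2BP2, RBX1 with siIGF2BP3 and BRD2 in sgIGF2BP3 against sgAAVS1 with DMSO became 0.01, DAXX in the difference of Dox effects between sgAAVS1 and sgIGF2BP3 became 0.02, and TRIM24 with siControl in the sgIGF2BP2 line became 0.00. After thinning that DAXX value was 0.01, that TRIM24 value 0.03, and RBX1 with siIGF2BP3, RBX1 in sgIGF2BP3 against sgAAVS1 and SPOPL in the siIGF2BP3 effect minus the Dox effect were 0.00, as was that BRD2 value with no filter or only the groups compared.

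With single libraries left out, DAXX ran from -0.09 to 0.04 with Dox in the sgIGF2BP2 line, -0.06 to 0.01 in the difference of Dox effects between sgAAVS1 and sgIGF2BP3, -0.02 to 0.06 in sgIGF2BP2 against sgAAVS1, 0.00 to 0.05 with siControl in the sgIGF2BP3 line, -0.09 to 0.00 with siIGF2BP2, -0.07 to 0.06 in the siIGF2BP2 effect minus the Dox effect and -0.07 to 0.02 in the difference of siRNA effects. NCOA3 ran from -0.02 to 0.09 with Dox in the sgIGF2BP3 line, -0.05 to 0.06 in the difference of Dox effects between sgAAVS1 and sgIGF2BP3, -0.02 to 0.06 in sgIGF2BP2 against sgAAVS1 and -0.06 to 0.02 in sgIGF2BP3 against sgAAVS1. RBX1 ran from -0.05 to 0.07 with Dox in the sgAAVS1 line, -0.03 to 0.03 and -0.07 to 0.02 in those line comparisons and -0.05 to 0.04 with siIGF2BP3. BRD2 ran from -0.02 to 0.02 in sgIGF2BP3 against sgAAVS1 and -0.06 to 0.01 with siIGF2BP2, and BRD3 from -0.04 to 0.01 with siIGF2BP2. With siControl in the sgIGF2BP2 line CUL3 ran from -0.02 to 0.04 and TRIM24 from -0.04 to 0.03, and TRIM24 from -0.03 to 0.07 in the siIGF2BP3 effect minus the Dox effect.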
